A study of Sus scrofa with 18 samples.

Results

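Transcripts of 10 heat shock chaperone genes were followed in right ventricular muscle (free wall) of pigs, in heart failure and at baseline. The genes were HSPH1, HSPB1, DNAJB1, HSP70.2, HSPA8, CRYAB, HSP90AA1, HSPD1, HSPE1 and DNAJA1, and every probe set assigned to exactly 1 of these symbols was taken. All 10 genes were found, with 21 probe sets among the 23935 tested, and they are 10 of the 6765 genes that the probe table names. The set was chosen by the failure minus baseline change of HSPH1 in earlier results of these data, where its mean level was lower in failure, and the others were taken as members of the same chaperone system. The failure minus baseline changes of the members are therefore given as a description, without a test. Of the 10 genes, 8 encode chaperones that act mainly in the cytosol, whereas HSPD1 and HSPE1 encode the chaperonin of the mitochondrial matrix, so the set is not purely cytosolic.

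Each of 9 pigs gave a failure and a baseline sample, so there are 9 failure and 9 baseline arrays. The animals were of mixed Hampshire, Yorkshire and Swedish Landrace breed, and the labels used here give no age or genotype. Failure samples of 6 pigs (6, 8, 9, 11, 12 and 13, called label set 1) are labelled with 120 min of ischemia. Failure samples of the other 3 pigs (5, 10 and 14, called label set 2) are labelled as acute ischemic heart failure after ligation of coronary arteries on the free wall, with a right atrial pressure above 20 mmHg as the definition and a body weight of 30 to 40 kg. The samples analysed here include no pig followed over the same time without ligation, so time and failure cannot be told apart.

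Heat shock proteins are chaperones that hold unfolded proteins in solution, refold them or pass them on for degradation. HSP70 proteins do the folding work with ATP, HSP40 proteins (the DNAJ family) deliver substrates to them, and HSP110 proteins such as HSPH1 exchange their nucleotide so that the cycle can restart. HSP90 takes over clients at a later stage, and small heat shock proteins bind unfolding proteins without ATP. In heart muscle the small proteins HSPB1 and CRYAB are abundant and associate with the sarcomere and the cytoskeleton. Transcription of many of these genes is driven by heat shock factor 1 (HSF1) when unfolded proteins accumulate, as in ischemia or heat.

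Levels are log2 intensities as deposited, 1 value per probe set and array, so a difference of 1 is a doubling. The median of an array lay between 5.59 and 5.66. All 8 ventricular cardiomyocyte markers were measured (MYH7, MYL2, MYL3, TNNT2, TNNI3, ACTC1, TNNC1 and RYR2), with mean levels from 10.27 to 14.95 and a median change of -0.04. The 3' minus 5' difference of the GAPDH control probe sets, which grows when RNA is degraded, ran from 0.31 to 3.55 in failure and from 0.61 to 2.61 at baseline. Pig 5 had the highest value in both conditions, and the 2 largest increases within a pig were those of pig 13 (1.18) and pig 5 (0.94). In limma 16 of 23935 probe sets (0.0668%) passed an adjusted p of 0.05 for failure against baseline, 11 of them (0.046%) lower in failure, and 0 of the 21 member probe sets did. Unadjusted p-values under 0.05 numbered 1470 over all probe sets and 2 among the 21 (HSPH1 and the dimmer CRYAB probe set). Nothing is read from this count, since the contrast chose the members.

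HSPH1, the HSP110 protein, was lower in failure than at baseline in 9 of 9 pigs, by a small amount. In failure its log2 level was 7.75 in pig 5, 8.26 in pig 6, 8.15 in pig 8, 8.39 in pig 9, 8.90 in pig 10, 7.58 in pig 11, 8.14 in pig 12, 7.24 in pig 13 and 7.36 in pig 14. At baseline the level was 7.81 in pig 5, 8.45 in pig 6, 8.51 in pig 8, 8.44 in pig 9, 9.18 in pig 10, 7.78 in pig 11, 8.69 in pig 12, 7.67 in pig 13 and 7.54 in pig 14. Each failure value lay below the baseline value of its own pig, but the groups overlapped over most of their range. The mean was 7.97 ± 0.54 in failure and 8.23 ± 0.55 at baseline (SD, n = 9 each). The paired change averaged -0.26 ± 0.17 (SD, n = 9), which is 1.19-fold lower in failure, with pig 12 lowest at -0.55 and pig 9 highest at -0.05. Over all tested probe sets, 76 of 23935 (0.318%) were lower in failure in 9 of 9 pigs. HSPH1 has a single probe set here, so no second measurement of the transcript stands beside it, and its values were deposited with at most 2 decimals.

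**Figure D1:**
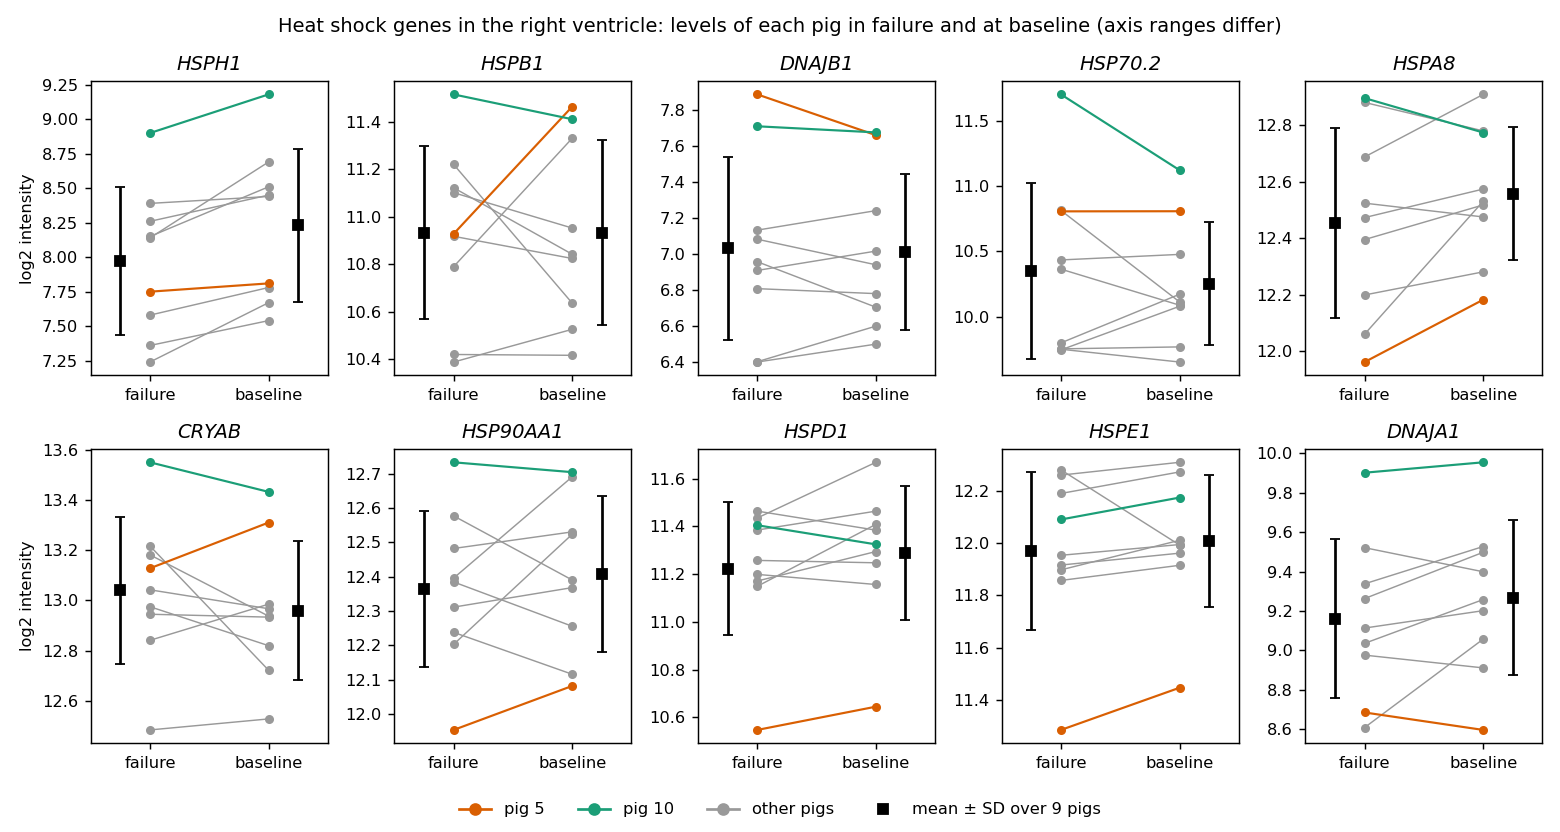
Log2 intensity of each of the 10 heat shock genes at its brightest probe set, with failure on the left and baseline on the right of each panel and a line for each of the 9 pigs. Squares with bars are the mean ± SD over 9 pigs. Pig 10 (green) had the highest HSPH1 level in both conditions, at 8.90 in failure and 9.18 at baseline, and pig 5 (orange) lay lowest for HSPD1, HSPE1, HSPA8 and HSP90AA1.

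Other cell types in the tissue were looked at beside this result. All 4 erythroid markers (HBB, ALAS2, AHSP and HBM) were lower in failure, with a median change of -1.01, and the mean over the list ran from 6.31 to 7.72 in failure and from 7.26 to 8.89 at baseline. Leukocyte markers (4 of 5 measured) had a median change of 0.02, with a list mean from 4.37 to 4.65 in failure and from 4.31 to 4.76 at baseline. Endothelial markers (5 of 5) had a median change of 0.01, with a list mean from 7.41 to 8.46 in failure and from 7.51 to 8.21 at baseline. Fibroblast markers (3 of 5) had a median change of 0.08, with a list mean from 9.30 to 10.22 in failure and from 9.26 to 10.005 at baseline. Smooth muscle markers (2 of 3) had a median change of 0.20, with a list mean from 9.25 to 10.03 in failure and from 9.11 to 10.04 at baseline. Atrial markers (2 of 5, MYL4 and SLN) had a median change of 0.23, with a list mean from 5.88 to 7.64 in failure and from 5.81 to 7.49 at baseline.

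The mean change of each of the 7 marker lists was set against the HSPH1 change over the 9 pigs, after the data had been seen, and none of the 7 relations passed after adjustment. Leukocyte markers ran most strongly against HSPH1 (r = -0.80, exact permutation p = 0.0110, adjusted 0.0770; rho = -0.82, exact p = 0.0108, adjusted 0.0754), with r = -0.83 without pigs 12 and 13 and -0.84 within label set 1. All 4 of these markers had mean levels from 4.06 to 4.81, below the array medians, and 2 had mean changes above 0 and 2 below. Atrial markers followed (r = -0.72, exact permutation p = 0.0294, adjusted 0.103; rho = -0.67, exact p = 0.0589, adjusted 0.206), with r = -0.77 without pigs 12 and 13 and -0.78 within label set 1. The ventricular markers gave r = 0.29 (exact p = 0.446, adjusted 0.520) and the erythroid markers 0.32 (exact p = 0.414, adjusted 0.520). The part of these cell types in the HSPH1 values was not tested beyond this. In bulk tissue, fewer cells of a type and less RNA per cell cannot be told apart.

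Pigs differed from each other in HSPH1 by far more than failure differed from baseline. The mean of the 2 arrays of a pig ran from 7.45 in pig 14 to 9.04 in pig 10, a 3.01-fold span. This question itself did not enter the choice of members. It was tested in limma as an F test over the pigs with condition as a covariate. The F divides by the spread of the changes within pigs, which was low for HSPH1 (SD 0.17, against a median of 0.22 over all tested probe sets). A choice by a steady change would favour a low spread, so the rank of the HSPH1 F may not be independent of the choice. HSPH1 passed (F = 32.67, adjusted p = 1.6e-05), with an F above that of 99.5% of all tested probe sets. It also passed in 18 of 18 alternative fits (adjusted p from 2.0e-06 to 0.00387), among them the fits without pig 5, without pig 10 and within either label set. The 2 samples of a pig may have been handled together, so a difference between animals and one between handling rounds cannot be told apart.

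All 10 genes differed between pigs in this test at their brightest probe sets, as did 9015 of 23935 probe sets (37.7%), so a difference between animals was common on these arrays. Over all member probe sets 17 of 21 passed, and 3 of HSPA8 and 1 of HSP90AA1 did not. Tested above the median level alone, where every brightest probe set lies, 17 of 18 member probe sets passed beside 63.5% of all. DNAJB1, an HSP40 cochaperone that delivers substrates to HSP70, spanned 2.50-fold between pig 8 and pig 5 (F = 25.22, adjusted p = 4.4e-05) and passed in 18 of 18 alternatives. HSP70.2, the stress-inducible HSP70, spanned 3.28-fold between pig 8 and pig 10 (F = 12.79, adjusted p = 0.000681). HSPD1 spanned 1.94-fold (adjusted p = 0.00150) and HSPE1 1.89-fold (adjusted p = 0.00159), and both were lowest in pig 5. Without pig 5 neither passed (adjusted p = 0.212 for HSPD1 and 0.100 for HSPE1), and HSP90AA1 did not either (0.121 without pig 5, 0.0242 with it). Without pig 10, CRYAB (0.0713), HSPB1 (0.0868) and HSP90AA1 (0.0947) did not pass. HSPB1 was also lost without pig 11 (0.0796), without pig 13 (0.0611) and in the unmoderated test (0.129), CRYAB without pig 13 (0.0598) and HSP90AA1 in the unmoderated test (0.0578). Within label set 1 alone, HSPH1 and DNAJB1 were the 2 of 10 genes that passed, beside 8.07% of all probe sets. Within label set 2 alone 8 of 10 genes passed, beside 21.5% of all probe sets.

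Pig 10 had the highest value of 7 of 10 genes in failure and of 6 of 10 at baseline, whereas over all named genes it was highest for 9.19% in failure and 10.6% at baseline. Pig 5 had the lowest value of 4 of 10 genes in failure and of 5 of 10 at baseline, beside 30.5% and 24.5% of all named genes, so pig 5 was often lowest on these arrays whatever the gene. The arrays of pig 5 had the largest GAPDH 3' minus 5' differences. With that difference as a covariate all 10 genes still differed between pigs in limma, beside 23.4% of all probe sets. HSPD1 then had F = 4.78 (adjusted p = 0.0349) in place of 10.34, and HSPE1 F = 4.61 (adjusted p = 0.0383) in place of 10.19. The part of RNA quality in the low values of pig 5 was not tested beyond this fit.

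HSPA8, the constitutive HSP70 of the cytosol, had a lowest, median and highest level of 11.96, 12.47 and 12.90 in failure, against 12.18, 12.53 and 12.91 at baseline. The change averaged -0.10 ± 0.19 (SD, n = 9) and was negative in 6 of 9 pigs, so the groups overlapped nearly completely. The lowest HSPA8 change was that of pig 13 (-0.47), whose GAPDH difference increased most (1.18).

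HSP70.2 is listed in the RefSeq gene table with HSPA1A and HSPA1B as synonyms, and near-identical HSP70 copies may contribute to its signal. Its lowest, median and highest level was 9.75, 10.36 and 11.70 in failure, against 9.65, 10.11 and 11.12 at baseline. The change averaged 0.10 ± 0.37 (SD, n = 9) and was positive in 4 pigs and negative in 5. The animals went opposite ways, with changes of 0.70 in pig 9, 0.58 in pig 10 and 0.28 in pig 11 but of -0.37 in pig 13 and -0.33 in pig 14. The other 2 probe sets of HSP70.2 also had their highest changes in pig 9 (1.24 and 0.91) and pig 10 (0.82 and 0.74), with means of 0.22 ± 0.55 and 0.13 ± 0.44 (SD, n = 9).

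The HSP40 proteins did not share a direction. DNAJA1, which like DNAJB1 stimulates the ATPase of HSP70, had a lowest, median and highest level of 8.61, 9.11 and 9.90 in failure, against 8.60, 9.26 and 9.95 at baseline. Its change averaged -0.11 ± 0.19 (SD, n = 9) and was negative in 6 of 9 pigs. DNAJB1 ran from 6.399 to 7.88 with a median of 6.96 in failure, and from 6.50 to 7.67 with a median of 6.94 at baseline. Its change averaged 0.02 ± 0.16 (SD, n = 9), positive in 5 pigs and negative in 4. For both genes the failure and baseline ranges overlapped nearly completely.

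HSP90AA1, the stress-responsive cytosolic HSP90, ran from 11.95 to 12.73 with a median of 12.38 in failure, and from 12.08 to 12.70 with a median of 12.39 at baseline. Its change at the brightest probe set averaged -0.04 ± 0.18 (SD, n = 9), negative in 5 of 9 pigs. Pigs 12 (-0.30) and 13 (-0.32) lay lowest, and pig 9 (0.19) lay highest.

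The small heat shock proteins had changes of both signs. HSPB1 ran from 10.39 to 11.52 with a median of 10.93 in failure, and from 10.42 to 11.46 with a median of 10.84 at baseline. Its changes cancelled to a mean of 0.00 ± 0.36 (SD, n = 9): it was 0.58 higher in failure in pig 8 and 0.28 higher in pig 6, whereas pigs 5 and 9 each had a change of -0.54. CRYAB (alpha B crystallin) ran from 12.48 to 13.55 with a median of 13.04 in failure, and from 12.53 to 13.43 with a median of 12.94 at baseline. The CRYAB change averaged 0.08 ± 0.21 (SD, n = 9), positive in 6 of 9 pigs, with the highest value in pig 8 (0.49) as for HSPB1.

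The changes of the mitochondrial pair varied least from pig to pig. HSPD1 (HSP60) ran from 10.55 to 11.46 with a median of 11.26 in failure, and from 10.64 to 11.67 with a median of 11.32 at baseline. Its change averaged -0.06 ± 0.13 (SD, n = 9), negative in 5 of 9 pigs. HSPE1 (HSP10, the lid of the HSP60 chamber) ran from 11.28 to 12.28 with a median of 11.95 in failure, and from 11.45 to 12.31 with a median of 11.99 at baseline. Its change averaged -0.04 ± 0.13 (SD, n = 9) and was negative in 8 of 9 pigs, with pig 9 (0.29) on the other side. HSPD1 and HSPE1 are neighbours on the pig genome in the RefSeq table of assembly Sscrofa11.1.

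Across the 10 genes at their brightest probe sets, 6 had a mean change below 0 and 4 above 0, with a median of -0.04. Of all named genes 53.6% had a mean change below 0, with a median of -0.01. Apart from HSPH1 the mean changes lay between -0.11 and 0.10. The spread of the paired change over pigs had a median SD of 0.22 over all tested probe sets, and only HSPB1 and HSP70.2 of the 10 genes exceeded it.

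**Figure D2:**
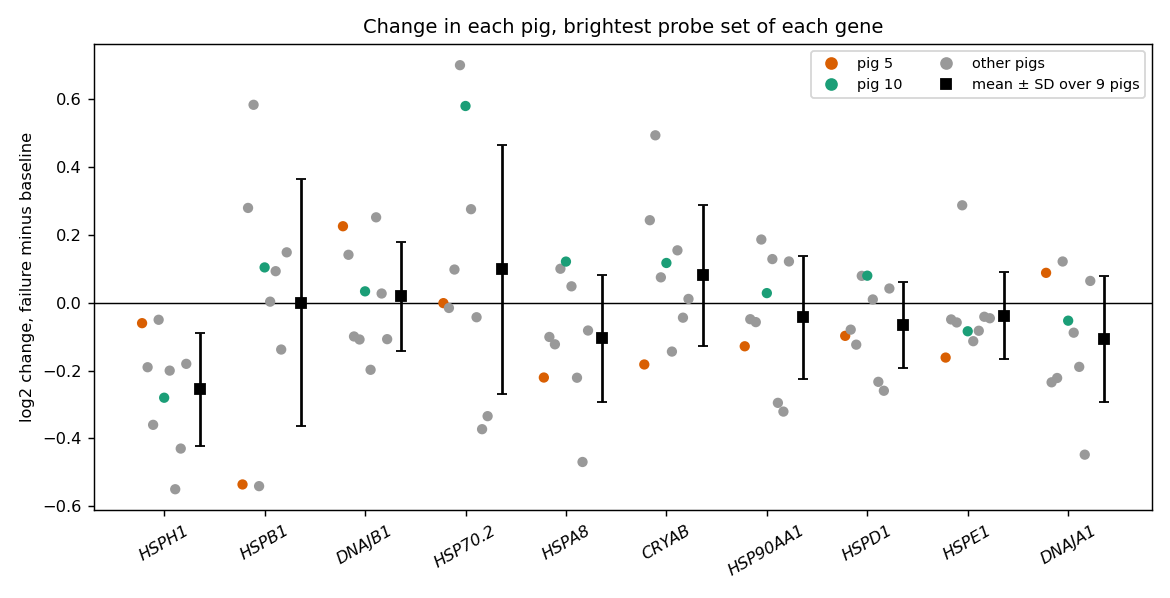
Log2 change (failure minus baseline) of each gene in each pig at its brightest probe set. Points are pigs, squares with bars the mean ± SD over 9 pigs, and HSPH1 is the single gene with all 9 points below 0 (mean -0.26).

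Probe sets of the same gene did not always move together. For HSP70.2 the changes of the other 2 probe sets correlated over the 9 pigs with those of the brightest at r = 0.94 and r = 0.89. For HSP90AA1 the other probe sets gave r = 0.82, 0.81, 0.05 and -0.48, and for DNAJA1 the other probe set gave r = -0.38. These correlations are descriptions over 9 points that share arrays. HSPA8 has 3 further probe sets with means between 3.95 and 4.67 in both conditions, below the array median, and changes from -0.05 to 0.08.

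The second CRYAB probe set had the widest spread of change of the 21. In failure its level was 8.32 in pig 5, 8.46 in pig 6, 4.77 in pig 8, 7.56 in pig 9, 10.17 in pig 10, 8.29 in pig 11, 7.41 in pig 12, 6.66 in pig 13 and 5.96 in pig 14. At baseline the level was 8.38 in pig 5, 5.56 in pig 6, 6.31 in pig 8, 6.91 in pig 9, 8.75 in pig 10, 5.89 in pig 11, 5.18 in pig 12, 4.37 in pig 13 and 5.87 in pig 14. The change averaged 1.15 ± 1.47 (SD, n = 9) with pig 8 lowest at -1.54, pig 6 highest at 2.90 and 4 pigs above 2. Its changes and those of the bright CRYAB probe set had opposite tendencies (r = -0.31 over 9 pigs). Like HSPH1 it is among the 1467 tested probe sets deposited with at most 2 decimals. The mean of both probe sets would put the CRYAB change at 0.62 in place of 0.08, so the gene's value depends on the probe set. In the RefSeq table CRYAB overlaps HSPB2, and the identifier of this probe set shares its cluster number with that of the HSPB2 probe set, so its assignment to CRYAB is uncertain.

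**Figure D3:**
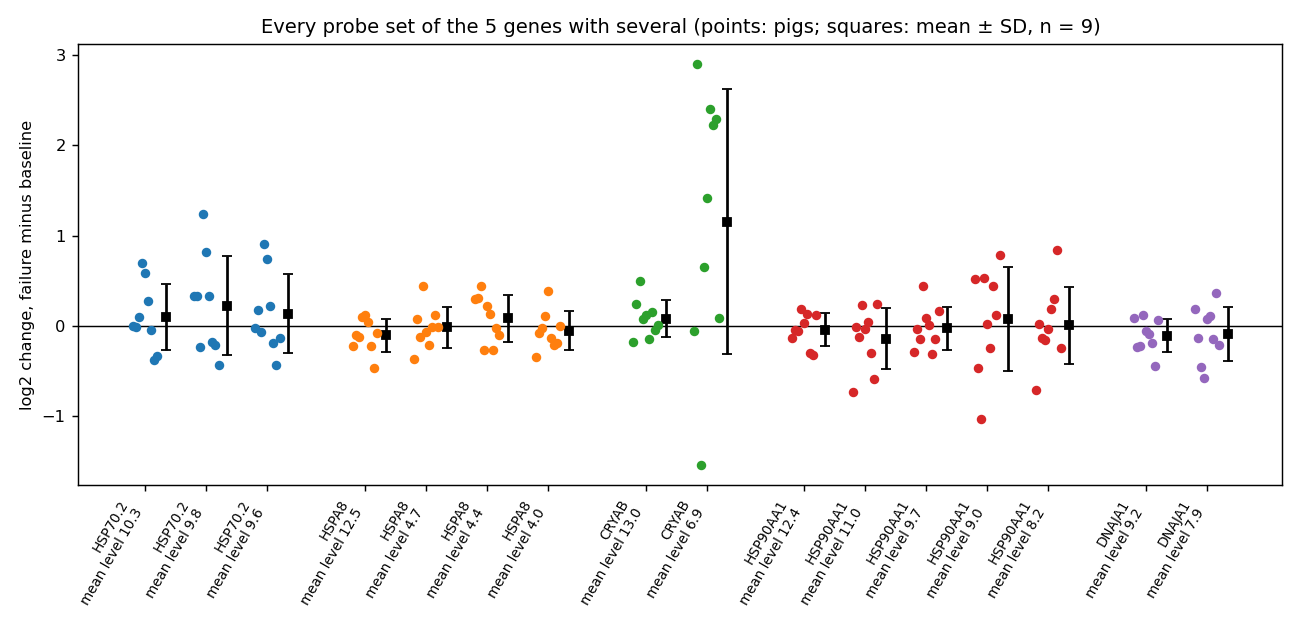
Log2 change (failure minus baseline) at every probe set of the 5 genes that have several, ordered by mean level within a gene. Points are the 9 pigs and squares with bars the mean ± SD, and the dimmer CRYAB probe set spans -1.54 to 2.90 while the brighter one spans -0.18 to 0.49.

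The next question was whether the chaperones moved together from pig to pig. The change of HSPH1 was set against that of each other gene and of the GAPDH 3' minus 5' difference, 10 relations over 9 pigs, with exact permutation tests (two-sided). None passed after Benjamini-Hochberg adjustment, and 3 had an unadjusted p under 0.05. HSPH1 went with DNAJA1 at r = 0.75 (exact p = 0.0202, adjusted 0.110; rho = 0.75, exact p = 0.0255, adjusted 0.255), and r was 0.76 without pigs 12 and 13, the farthest from the HSPH1 median, and 0.69 within label set 1. With the mean over both DNAJA1 probe sets in place of the brightest, r was 0.28 (adjusted exact p = 0.533). For HSP90AA1 r was 0.72 (exact p = 0.0290, adjusted 0.110, with rho = 0.65, exact p = 0.0666, adjusted 0.286). It was 0.21 without pigs 12 and 13, so its size depended on these 2 animals, which have the lowest HSPH1 changes. It was also 0.21 with the mean over the 5 HSP90AA1 probe sets (adjusted exact p = 0.589). For HSPD1 r was 0.71 (exact p = 0.0331, adjusted 0.110; rho = 0.62, exact p = 0.0857, adjusted 0.286) and 0.22 without them. Within label set 1 (6 pigs) r was 0.91 for HSP90AA1 and 0.93 for HSPD1, and label set 2 has too few pigs. Given the change of the GAPDH 3' minus 5' difference, the partial r with HSPH1 was 0.67 for DNAJA1, 0.83 for HSP90AA1 and 0.70 for HSPD1. None of these passed (adjusted exact p = 0.128, 0.117 and 0.128). Of all tested probe sets, 1.98% had an r with HSPH1 at least as high as DNAJA1.

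HSPH1 had negative r with both small heat shock proteins of the set, and neither relation passed. For CRYAB r was -0.38 (exact p = 0.323, adjusted 0.404; rho = -0.37, exact p = 0.336, adjusted 0.428), -0.69 without pigs 12 and 13 and -0.16 within label set 1. For HSPB1 r was -0.52 (exact p = 0.150, adjusted 0.343; rho = -0.35, exact p = 0.359, adjusted 0.428), -0.92 without pigs 12 and 13 and -0.42 within label set 1. The GAPDH difference gave r = -0.44 (exact p = 0.232, adjusted 0.387; rho = -0.57, exact p = 0.121, adjusted 0.301), 0.05 without pigs 12 and 13 and -0.82 within label set 1. In pigs 12 and 13, the pigs with the lowest HSPH1 changes, that difference was 0.55 and 1.18 higher in failure. In pig 5 it was 0.94 higher in failure, beside an HSPH1 change of -0.06. With the GAPDH difference as a covariate the HSPH1 change was -0.22 (SE 0.07), against -0.26 (SE 0.06) without it. Given the GAPDH change, the partial r with HSPH1 was -0.67 for HSPB1 (adjusted exact p = 0.128) and -0.53 for CRYAB (adjusted exact p = 0.248). The part of RNA quality in the HSPH1 changes was not tested beyond these values.

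All 45 pairs of the 10 genes were compared in the same way, a choice made after the HSPH1 relations had been seen. There were 26 positive and 19 negative correlations, and 3 pairs passed after adjustment over the 45, all among HSPA8, HSP90AA1 and HSPD1. Of the 45 pairs 57.8% were positive, beside 52.3% of all pairs among the 4924 named genes above the median level. Among those pairs of named genes 0.0492% had an r at least as high as HSP90AA1 with HSPD1, 0.227% as HSPA8 with HSPD1 and 0.569% as HSPA8 with HSP90AA1. All changes come from the same arrays, and the part of RNA quality in the 3 relations was not tested beyond the partial correlations given here. HSP90AA1 and HSPD1 correlated at r = 0.94 (exact p = 0.000468, adjusted 0.0105; rho = 0.87, exact p = 0.00451, adjusted 0.0676) and changed in the same direction in 9 of 9 pigs. HSPA8 and HSPD1 correlated at r = 0.90 (exact p = 0.000358, adjusted 0.0105; rho = 0.97, exact p = 0.000165, adjusted 0.00744), in the same direction in 8 of 9 pigs. HSPA8 and HSP90AA1 correlated at r = 0.87 (exact p = 0.00186, adjusted 0.0279; rho = 0.90, exact p = 0.00203, adjusted 0.0456), also in the same direction in 8 of 9 pigs. Without the 2 pigs farthest from the median of the first gene of each pair, r was 0.83, 0.84 and 0.90 in the same order, and within label set 1 it was 0.99, 0.94 and 0.94. Given the change of the GAPDH 3' minus 5' difference, the partial r was 0.79 for HSP90AA1 with HSPD1, 0.65 for HSPA8 with HSPD1 and 0.39 for HSPA8 with HSP90AA1. HSP70.2 with HSPA8 did not pass (r = 0.82, exact p = 0.00643, adjusted 0.0723, with rho = 0.77, exact p = 0.0214, adjusted 0.229). Its r was 0.67 without pigs 9 and 10 and 0.92 within label set 1, and its partial r was 0.85. The pairs use the brightest probe set of each gene and were not repeated with others. Changes of the other HSP90AA1 probe sets correlated with those of the brightest at r = 0.82, 0.81, 0.05 and -0.48. The pairs with HSP90AA1 are therefore shown for its brightest probe set alone.

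The correlation of HSPD1 with its partner and neighbour HSPE1 was r = 0.36 (exact p = 0.388, adjusted 0.627), with a rank correlation of 0 (exact p = 1) r = 0.56 without pigs 10 and 13, 0.58 within label set 1 and a partial r of -0.12 given the GAPDH change. Whether it differs from the correlations of HSPD1 with HSPA8 and HSP90AA1 was not tested. HSPB1 and CRYAB, the small heat shock proteins, correlated at r = 0.74 (exact p = 0.0226, adjusted 0.145; rho = 0.72, exact p = 0.0369, adjusted 0.237), which did not pass, with r = 0.91 without pigs 5 and 9 and 0.70 within label set 1.

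**Figure D4:**
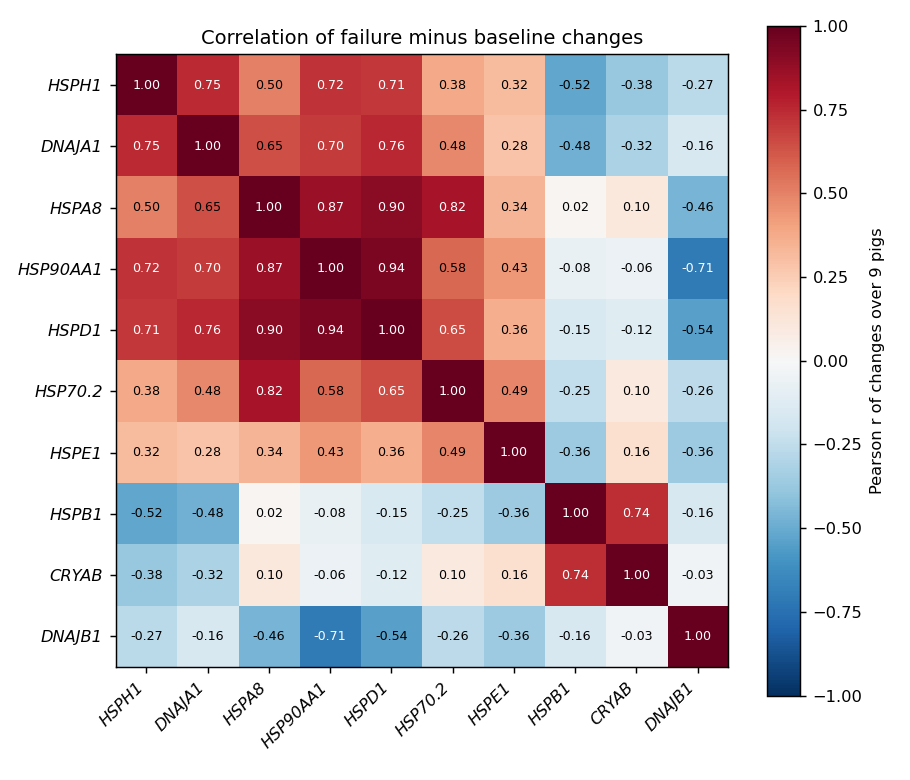
Pearson correlation over 9 pigs of the failure minus baseline changes of the 10 genes at their brightest probe sets. Red marks positive and blue negative values. HSPA8, HSP90AA1 and HSPD1 form a block with r from 0.87 to 0.94, HSPB1 and CRYAB pair at 0.74, and DNAJB1 has r = -0.71 with HSP90AA1.

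**Figure D5:**
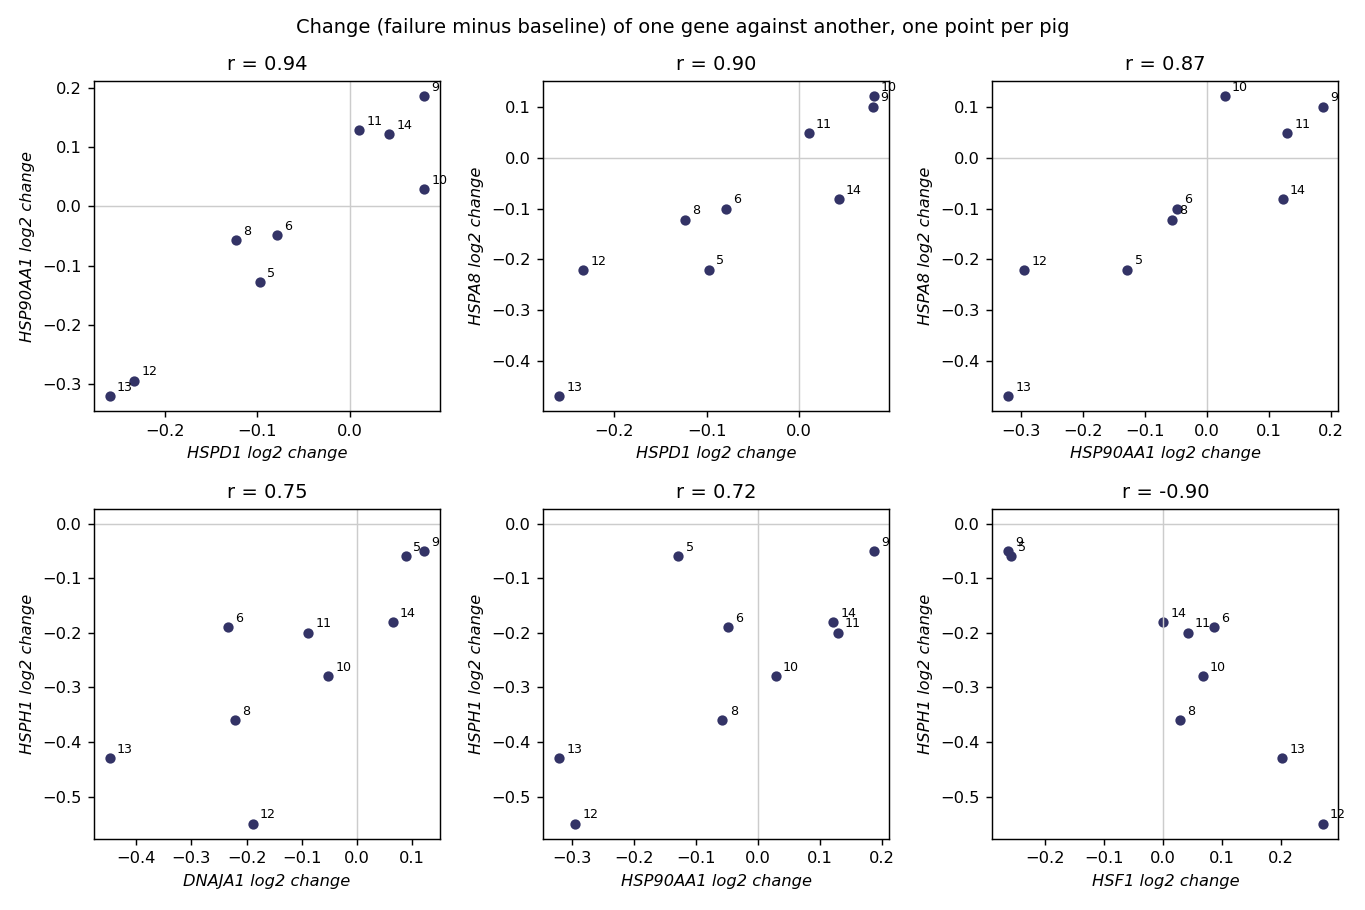
Log2 change (failure minus baseline) of a gene on the vertical axis against that of another on the horizontal axis, 1 point per pig with its number. Each gene is shown at its brightest probe set. The upper panels are the 3 pairs that passed (r = 0.94, 0.90 and 0.87), and the lower panels set HSPH1 against DNAJA1 (0.75), HSP90AA1 (0.72) and HSF1 (-0.90).

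The response was compared between label sets, a contrast that did not enter the choice of members. In limma's interaction test 0 of 23935 probe sets (0%) passed and 0 of the 21 member probe sets did (adjusted p from 0.867 to 0.998), with 1356 of all and 1 of the 21 at an unadjusted p under 0.05. In label set 2 the HSPH1 change was -0.17 ± 0.11 (SD, n = 3), and in label set 1 it was -0.30 ± 0.18 (SD, n = 6). The difference was 0.12 (95% interval -0.17 to 0.41, adjusted p = 0.963 in limma), and the interval includes 0. HSPH1 was lower in failure in every pig and was chosen by this change, so negative means in both sets were given in advance. For DNAJA1 the change was 0.03 ± 0.08 (SD, n = 3) among the pigs of label set 2, against -0.18 ± 0.19 (SD, n = 6) among those of label set 1. That is a difference of 0.21 (95% interval -0.08 to 0.50, adjusted p = 0.919 in limma). The member probe set with an unadjusted p under 0.05 is a further one of HSP90AA1, with changes of -0.33 in label set 2 and 0.18 in label set 1 (difference -0.51, 95% interval -0.97 to -0.05, adjusted p = 0.867 in limma).

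The wider chaperone network was taken from 6 lists with 98 genes, of which 63 are named on the array. In limma 0 of the 63 passed for failure against baseline (smallest adjusted p = 0.727), beside 0.0668% of all probe sets, and 1 (PTGES3) had an unadjusted p under 0.05. Their mean changes were above 0 in 30 and below 0 in 33, with a median of -0.00235, against -0.01 over all named genes.

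Among heat shock factors and their classic targets (9 of 16 measured) 5 lay above 0 and 4 below, with a median of 0.01. HSF1, the main stress activator of these genes, changed by 0.02 ± 0.18 (SD, n = 9), and BAG3, an HSP70 cochaperone of selective autophagy in muscle, by 0.01 ± 0.16. HMOX1, the stress-inducible haem oxygenase, had the largest change of that list at 0.20 ± 0.42, higher in 7 of 9 pigs (adjusted p = 0.864 in limma), followed by HSPA2, an HSP70, at 0.11 ± 0.26. Small heat shock proteins (6 of 8) had a median of -0.00301. HSPB6 changed by -0.00235 ± 0.39 and HSPB8, the partner of BAG3, by 0.04 ± 0.20, and HSPB3 by 0.03 ± 0.25 and HSPB2 by -0.02 ± 0.15 (SD, n = 9 each).

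Among the other HSP110, HSP70 and HSP40 genes (20 of 34) 13 lay above 0 and 7 below, with a median of 0.03. HSPA4, another HSP110 protein, changed by 0.03 ± 0.17 and so lay on the other side of 0 from HSPH1 (SD, n = 9). HSPBP1, an HSP70 nucleotide exchange factor, changed by 0.12 ± 0.20, higher in 7 of 9 pigs (adjusted p = 0.864 in limma). HSPA13 changed by 0.11 ± 0.21, higher in 8 of 9 pigs (adjusted p = 0.875 in limma). HSP90 cochaperones (15 of 17) lay below 0 in 10 and above in 5, with a median of -0.05. HSP90AB1, the constitutive cytosolic HSP90, changed by -0.08 ± 0.12, lower in 8 of 9 pigs (adjusted p = 0.905 in limma). STIP1, the adaptor between HSP70 and HSP90, changed by -0.05 ± 0.27. FKBP4, an HSP90-binding immunophilin, changed by -0.21 ± 0.59, and PTGES3 (p23, which stabilises HSP90 with its client) by -0.16 ± 0.18, lower in 7 of 9 pigs (adjusted p = 0.727 in limma).

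The cytosolic chaperonin TRiC (6 of 9 subunits) had a median of -0.000576, with CCT4 at -0.10 ± 0.17 and CCT6A at 0.04 ± 0.17. Mitochondrial chaperones and proteases (7 of 14) had a median of -0.02. HSPA9, the mitochondrial HSP70, changed by -0.09 ± 0.19, and the largest changes were those of YME1L1, an inner membrane protease (-0.13 ± 0.22), and, after HSPA9, LONP1 (0.02 ± 0.09; SD, n = 9 each).

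HSPH1 was also set against these 63 genes, again after the data had been seen. The HSF1 change had the strongest relation, at r = -0.90 (exact p = 0.00144, adjusted 0.0910 over the 63; rho = -0.85, exact p = 0.00607, adjusted 0.383), which did not pass. It was -0.81 without pigs 12 and 13 and -0.88 within label set 1. HSF1 was 0.27 higher in failure in pig 12 and 0.20 higher in pig 13, where HSPH1 was lowest relative to baseline, and -0.26 in pigs 5 and 9, where HSPH1 was nearest to its baseline level.

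By level rather than change, the genes most like HSPH1 over the 18 arrays were searched among 4914 named genes above the median level. HSF2, a second heat shock factor, came first at r = 0.89, followed by EIF4E, the cap-binding translation factor (0.88), ATAD1 (0.86), KDELC1 (0.86) and MAPK6 (0.85). The 2 arrays of a pig share the animal, so these values are a description. Over the 9 paired changes HSF2 had r = 0.71 with HSPH1, MAPK6 0.66, EIF4E 0.45, KDELC1 0.32 and ATAD1 0.04. HSF2 itself changed by -0.01 ± 0.19 (SD, n = 9) between failure and baseline. Of the members, DNAJA1 (0.88), HSPA8 (0.78) and HSP90AA1 (0.76) were most like HSPH1 in level over the 18 arrays, and DNAJB1 (0.30) least.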

How the data were processed

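Per the labels' protocols, Trizol extraction was followed by RNeasy columns, and 250 ng of total RNA per sample entered the GeneChip 3' IVT Express kit, which primes at the poly(A) tail. The authors deposited log2 intensities, 1 per probe set and array. Per the submitters' processing notes Partek was used, but how the signals were background-corrected, normalized and summarized is not stated in the labels used here. Scaling between arrays would hide a shift shared by most transcripts. Precision is limited by the number of pigs.

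Of 24123 probe sets, 188 controls were left out. Genes were named from the probe table, and the brightest probe set (by mean over the 18 arrays) stands for its gene. limma 3.58.1 in R 4.3.3 (lmFit, eBayes, two-sided, Benjamini-Hochberg over all 23935 probe sets) was fitted with pig as a block, tested on simulated data. The labels give each pig's number to both its samples. After removal of group means these correlated with r from 0.449 to 0.750, and 9 of 9 baseline samples correlated best with their own pig. Fits were repeated without the block, with a random pig effect, under median and quantile scaling, above the median level, with other variance models, after rounding, with the GAPDH difference (AFFX-Ssc-gapdh-3_at minus AFFX-Ssc-gapdh-5_at) as a covariate, leaving out each pig, and within either label set. All 45 member pairs, the HSF1 relation and the marker relations were added after the data were seen. Named genes outside the members are 8 fixed network genes, up to 2 more per list with the largest mean change, and the 5 most like HSPH1. The members and lists were chosen with earlier results of these data known. Heat shock elements in promoters were not analysed here.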

Additional observations from a re-analysis of the deposited data

Results flagged for a closer look

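Among 63 groups of 9 values (failure level, baseline level and change of each of the 21 probe sets), 9 had an end value that stood apart from the other 8 by Dixon's criterion. The nominal rate of this criterion is about 1 in 20, or 3.15 of 63, and probe sets of a pig are not independent. Over all tested probe sets a low end value, of any pig, stood apart in 6.90% in failure and in 4.25% at baseline. High end values and changes were not counted over all probe sets, so the count of 9 has no full background.

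Pig 5 was the low animal in 7 of the 9. Over all tested probe sets it stood apart in this way in 4.72% in failure and in 2.23% at baseline. HSPD1 was 10.55 in failure (next pig 11.15) and 10.64 at baseline (next pig 11.16). HSPE1 was 11.28 in failure (next pig 11.86) and 11.45 at baseline (next pig 11.92). A further HSP90AA1 probe set was 9.33 in failure (next pig 10.80) and 10.06 at baseline (next pig 10.98), and another was 8.39 in failure (next pig 9.47). The GAPDH 3' minus 5' difference of pig 5 was the largest of 9 in failure (3.55) and at baseline (2.61). Its part in these levels was not tested beyond the fit over pigs with this difference as a covariate.

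Pig 10 stood apart upwards at a further HSP70.2 probe set in failure, at 11.36 (next pig 10.17). Pig 9 stood apart in the HSPE1 change, at 0.29 (next pig -0.04).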

How the results depend on the processing

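The HSPH1 change stayed within 1 SD in 16 of 16 alternatives, from -0.30 to -0.17. With a pig left out it ran from -0.28 to -0.22. HSPH1 was chosen by this change and was lower in failure in every pig, so fits on fewer pigs could not reverse it. Dropping the block or rounding left it unchanged by construction. Its direction in those fits is therefore not a separate result. The means of the other genes lay nearer 0, and 6 crossed it in some setting: HSPB1 (-0.09 to 0.07), DNAJB1 (-0.02 to 0.05), CRYAB (-0.02 to 0.62, the highest as the mean of its probe sets), HSP90AA1 (-0.07 to 0.03), HSPD1 (-0.10 to 0.01) and DNAJA1 (-0.18 to 0.03). Leaving out a pig moved HSP70.2 to 0.024 (pig 9), HSPA8 to -0.059 (pig 13), HSP90AA1 to -0.0077 (pig 13), CRYAB to 0.029 (pig 8), DNAJA1 to -0.064 (pig 13), HSPD1 to -0.040 (pig 13) and HSPE1 to -0.079 (pig 9). HSP70.2 (0.02 to 0.18), HSPA8 (-0.13 to -0.02) and HSPE1 (-0.10 to -0.01) did not cross 0 in these settings. For HSPA8 the change was -0.036 with the GAPDH covariate and -0.023 as the mean of its probe sets, in place of -0.105. The labels pair the samples by pig. With no replicate block, 0 probe sets passed for failure against baseline in place of 16 (440 at an unadjusted p under 0.05 in limma). That count was also 0 in the unmoderated test (1431 unadjusted) and in label set 2 alone (1211 unadjusted), 3 in label set 1 alone, 9 above the median level, 10 with a trended and robust variance and 9 with the GAPDH covariate. With a pig left out it ran from 2 (pig 10) to 26 (pig 8), with 9 without pig 5, 3 without pig 9, 4 without pig 11, 4 without pig 12 and 5 without pig 13. The label set count was 0 in 18 of 18 alternatives. The count for differences between pigs was 9015, against 5630 unmoderated, 5605 with the GAPDH covariate, 1932 in label set 1 alone, 5145 in label set 2 alone, and 5650 (pig 5) to 9141 with a pig left out. Without pigs 12 and 13 the HSPH1 correlation reversed to 0.28 for DNAJB1, -0.066 for HSPA8 and 0.049 for the GAPDH difference. By rank correlation 2 of the 45 pairs passed in place of 3. Some of these fits also had fewer animals or probe sets, and the causes of the differences were not tested. With 9 animals and 1 probe set for 5 of the 10 genes, small changes are not resolved, and levels near the bottom of the range carry little information.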
